A study of Homo sapiens with 48 samples.

Results

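The response of 2 diffuse large B cell lymphoma lines to 3 h of acalabrutinib, an inhibitor of Bruton's tyrosine kinase (BTK), was taken from 8 of the 48 RNA-seq libraries of the study. TMD8 and HBL1 are established lines of the activated B cell-like type, and both carried an engineered Cas9 in every group, controls included. Each line received vehicle (DMSO) or 50 nM acalabrutinib for 3 h, with 2 libraries per line and treatment, so that 4 acalabrutinib libraries were compared with 4 DMSO libraries. The 8 were chosen by their labels alone (line, compound and time), and the difference between the lines was removed by fitting cell line as a blocking factor. The same lines also received 20 nM copanlisib, an inhibitor of PI3K, or 5 µM NGI-1, an inhibitor of oligosaccharyltransferase, and were sampled again at 6 and 24 h. Those libraries are used below only to place the 3 h response.

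BTK sits just below the B cell antigen receptor. The receptor's signal, passed on by the kinases LYN and SYK, lets BTK activate phospholipase C gamma 2, which raises calcium (read by NFAT factors), feeds the ERK pathway (read by immediate early genes such as EGR1) and activates NF-kB. Lymphomas of the activated B cell-like type are known for chronic activity of this receptor and for their dependence on NF-kB, whose targets include its own inhibitors. BTK inhibitors such as acalabrutinib bind the kinase and are used to treat B cell cancers.

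The 8 libraries held 7165377 to 10064932 counted reads, and 12907 of the 25066 listed genes passed the filter on low counts. All 8 B cell markers were expressed, at a sum of 4852 to 6000 CPM (counts scaled to a common library size and corrected for library composition) under DMSO and 4714 to 6455 CPM under acalabrutinib. Among 11 T and NK cell markers 9 stayed under 1 CPM in every library, with CD3G, GNLY and KLRD1 at 0, and their sum ran from 1.87 to 47.1 CPM under DMSO and 1.91 to 43.1 CPM under acalabrutinib. The 11 myeloid markers summed to 4.27 to 57.2 and 4.36 to 58.8 CPM, with LYZ, CD163, FCGR3A and S100A9 at 0. The 12 stromal and epithelial markers summed to 18.8 to 113 and 22.2 to 116 CPM, with VWF and KRT18 at 0. Of these 12, 7 exceeded 1 CPM in some library, with CDH1 at up to 96.3, COL1A2 at up to 13.3, EPCAM at up to 10.04 and KRT8 at up to 9.53 CPM. No tested marker of these lists was called. BTK itself, which the compound inhibits as a protein, was at 417 and 404 CPM in the 2 DMSO libraries of TMD8, 418 and 416 under acalabrutinib, 210 and 216 in the DMSO libraries of HBL1 and 217 and 230 under acalabrutinib. Its log2 change was 0.05 ± 0.05 (SE, adjusted p = 0.95), so its transcript gives no check of the treatment labels.

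In the fit with cell line and compound alone, few genes were called after 3 h, and almost all of them fell. With adjusted p below 0.05 as the threshold, 96 genes passed (0.744% of those tested), of which 90 fell (0.697%) and 6 rose (0.0465%). Of the 15 with the largest fall among called genes whose mean log2 CPM was 1 or more, 7 encode cytokines or chemokines and 4 are early response genes of the EGR and NR4A families. Of the 90 genes, 20 fell at least 2-fold and the median log2 change was -0.56, while none of the 6 rose as much as 2-fold. In 82 of the 90, both acalabrutinib libraries lay below both DMSO libraries in each line, which held for 3.76% of all genes tested. For all 6 higher genes the reverse was true, which held for 3.39% of all genes. Both sets were called on these same libraries, so the lack of overlap is no separate support for the calls. Over all tested genes the median log2 change was 0.01. With a replicate block, 279 genes were lower (2.16%) and 106 higher (0.821%), and all 96 calls were among them. By edgeR 548 genes were lower and 375 higher at an unadjusted p under 0.05. Leaving out 1 library at a time gave 65 to 93 lower genes. The count of 6 higher genes became 3 without TMD8 acalabrutinib replicate 1 or HBL1 DMSO replicate 1, 1 without HBL1 acalabrutinib replicate 1 and 10 without HBL1 acalabrutinib replicate 2.

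Transcripts of some proteins that switch NF-kB off were among the clearest to fall. Of 24 listed NF-kB targets and feedback inhibitors 13 fell, against 0.697% of all genes tested, and none rose (list median -0.40). With the replicate block 16 were lower and 1 higher, against 2.16% and 0.821% of all genes tested. Members not called in the main fit included NFKBIB (-0.09), TNIP1 (0.09), TNIP2 (-0.16), TNIP3 (-0.57) and BCL3 (0.20). NFKBID, which encodes an atypical nuclear IkB protein, was at 150 and 127 CPM in the DMSO libraries of TMD8 and at 48.8 and 43.4 CPM under acalabrutinib. In HBL1 it was at 274 and 339 CPM under DMSO and 140 and 147 CPM under acalabrutinib. Its level thus fell in both lines with no overlap, by 2.49-fold in the pooled fit (log2 change -1.32 ± 0.09, adjusted p = 1.8e-07). NFKBIA, the gene of IkB alpha, which holds NF-kB in the cytoplasm, went from 140 and 107 CPM to 55.7 and 50.2 CPM in TMD8. It went from 108 and 126 CPM to 55.7 and 57.5 CPM in HBL1, a pooled 2.20-fold fall (-1.14 ± 0.08, adjusted p = 1.8e-07). The treated libraries of both lines thus came to nearly the same level, all between 50.2 and 57.5 CPM. TNFAIP3 encodes A20, a ubiquitin-editing enzyme that restrains NF-kB signalling. In TMD8 it was at 191 and 169 CPM under DMSO and 99.3 and 91.2 CPM under acalabrutinib, and in HBL1 at 122 and 167 against 65.6 and 89.7 CPM (-0.91 ± 0.10, adjusted p = 2.4e-05). TRAF1, a signalling adaptor, fell from 37.1 and 32.3 to 20.9 and 18.5 CPM in TMD8 and from 73 and 78.8 to 48.8 and 44.8 CPM in HBL1 (-0.75 ± 0.08, adjusted p = 2.4e-05). These 4 genes were called whichever library was left out.

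The remaining 9 called members of the list, given to account for all 13, were MIRHG2, CD83, NFKBIZ, BCL2A1, CD40, NFKBIE, NFKB1, CFLAR and NFKB2. They fell by 1.19 (MIRHG2) to 0.28 (NFKB2) on the log2 scale. NFKB1 and NFKB2 encode NF-kB subunits themselves. NFKB2 was lost in 5 of the 8 fits that left out 1 library (any HBL1 library or TMD8 acalabrutinib replicate 2, adjusted p = 0.079 to 0.16), NFKBIE in 3 (TMD8 DMSO replicate 1 or either TMD8 acalabrutinib library, 0.051 to 0.057) and NFKB1 in 1 (TMD8 DMSO replicate 1, 0.059). A further subunit gene, REL, fell from 82.8 and 69.9 to 60.7 and 49.1 CPM in TMD8 and from 119 and 131 to 98.8 and 106 CPM in HBL1 (-0.38 ± 0.08, adjusted p = 0.020). The fall of REL was lost in 4 such fits, namely without TMD8 DMSO replicate 1 (adjusted p = 0.11), TMD8 acalabrutinib replicate 2 (0.087), HBL1 DMSO replicate 2 (0.066) or HBL1 acalabrutinib replicate 1 (0.058). MIRHG2 (newer name MIR155HG), the host transcript of the microRNA miR-155, was at 92.5 and 55.6 CPM under DMSO and 31 and 24.7 CPM under acalabrutinib in TMD8, and at 61 and 56.2 against 28.8 and 31.7 CPM in HBL1. All 4 treated libraries lay below all 4 DMSO libraries (-1.19 ± 0.13, adjusted p = 3.2e-05). The mature microRNA was not measured, and its RefSeq sequence (GRCh38.p14, chr21:25573983-25574006, plus strand) is shown with the seed, bases 2 to 8, in capitals because the host transcript fell more than 2-fold.
hsa-miR-155-5p: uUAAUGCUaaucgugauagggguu

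The 250 bases before the transcription start were examined for 3 motifs on both strands, in RefSeq promoters of GRCh38.p14. A promoter was at hand for 74 of the 90 lower genes. The NF-kB consensus was found in 15 of these 74 (20.3%), in 9.57% of all 27305 promoters and in 11.6% of those of tested genes, of which 9887 of 12907 were at hand, too few for a sound comparison. The CArG box of the serum response factor was found in 4 of 74 (5.41%), in 1.14% of all and in 1.10% of those of tested genes. The CRE, TGACGTCA, was found in 0 of 74, in 1.77% of all and in 2.98% of those of tested genes. A match describes the letters and not a bound site. Of the promoters of the 24 listed NF-kB genes, 20 were at hand and 7 held the NF-kB consensus (35.0%). Shown with matches in capitals are 4 NF-kB promoters, those of 2 inhibitors, a cytokine and a subunit, and for contrast EGR1, with its 2 CArG boxes. Neighbouring matches overlap in REL and form 1 run of capitals there.
NFKBIA (chr14:35404750-35404999, minus strand): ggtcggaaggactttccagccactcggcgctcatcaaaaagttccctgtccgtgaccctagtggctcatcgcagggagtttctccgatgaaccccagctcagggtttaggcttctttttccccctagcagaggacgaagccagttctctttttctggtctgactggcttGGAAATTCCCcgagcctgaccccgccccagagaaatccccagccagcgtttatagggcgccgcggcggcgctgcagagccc
TNFAIP3 (chr6:137867009-137867258, plus strand): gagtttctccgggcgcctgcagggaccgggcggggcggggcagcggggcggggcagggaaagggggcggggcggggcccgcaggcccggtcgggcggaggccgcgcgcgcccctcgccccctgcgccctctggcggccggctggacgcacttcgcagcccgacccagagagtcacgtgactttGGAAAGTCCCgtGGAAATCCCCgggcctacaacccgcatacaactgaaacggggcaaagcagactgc
IL6 (chr7:22726950-22727199, plus strand): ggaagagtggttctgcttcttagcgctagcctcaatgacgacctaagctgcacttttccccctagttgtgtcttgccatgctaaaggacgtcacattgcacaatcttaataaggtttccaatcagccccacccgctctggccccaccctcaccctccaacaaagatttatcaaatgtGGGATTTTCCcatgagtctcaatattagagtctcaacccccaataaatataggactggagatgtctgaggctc
REL (chr2:60881324-60881573, plus strand): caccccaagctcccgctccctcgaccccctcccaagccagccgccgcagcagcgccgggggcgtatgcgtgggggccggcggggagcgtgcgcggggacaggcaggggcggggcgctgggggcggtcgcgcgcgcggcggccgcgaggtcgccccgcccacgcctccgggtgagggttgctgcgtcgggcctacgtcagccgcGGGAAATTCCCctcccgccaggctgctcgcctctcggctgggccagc
EGR1 (chr5:138465229-138465478, plus strand): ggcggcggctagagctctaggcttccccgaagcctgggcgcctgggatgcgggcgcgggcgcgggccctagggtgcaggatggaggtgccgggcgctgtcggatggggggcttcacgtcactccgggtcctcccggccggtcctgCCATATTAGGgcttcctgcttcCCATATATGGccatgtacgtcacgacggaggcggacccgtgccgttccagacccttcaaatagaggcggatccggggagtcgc

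Secreted signals were among the largest falls. Of 20 tested chemokines and cytokines 8 fell, against 0.697% of all genes tested, and none rose (list median -0.56). The levels differed greatly between the lines. TNF, an inflammatory cytokine that itself activates NF-kB, was at 166 and 152 CPM under DMSO and 34.8 and 33.5 CPM under acalabrutinib in TMD8. In HBL1, where it was expressed far less, it was at 7.91 and 11 against 2.73 and 4.80 CPM. The fall was 4.10-fold (-2.04 ± 0.14, adjusted p = 1.8e-07). IL10, a cytokine that signals through STAT3, fell from 43.8 and 43.6 to 8.12 and 10 CPM in TMD8 and from 9.06 and 14.5 to 3.82 and 5.52 CPM in HBL1 (-1.91 ± 0.18, adjusted p = 8.5e-06). For both genes all treated libraries of a line lay below its DMSO libraries.

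The chemokines CCL3 and CCL4 attract T cells and myeloid cells. CCL4 was at 12.5 and 7.62 CPM under DMSO and 1.41 and 0.956 CPM under acalabrutinib in TMD8, and at 5.62 and 7.88 against 1.20 and 2.35 CPM in HBL1 (-2.46 ± 0.28, adjusted p = 3.6e-05). CCL3 was at 8.88 and 13.7 against 1.62 and 2.75 CPM in TMD8 and 2.60 and 4.54 against 0.654 and 2.04 CPM in HBL1 (-1.98 ± 0.30, adjusted p = 0.0012). Neither gene overlapped between treatments in either line. Both have near-identical copies whose reads the counting may have split, so these levels are uncertain. LTA, a cytokine of the TNF family, fell from 45 and 41.3 to 16.2 and 17.2 CPM in TMD8 and from 9.79 and 8.64 to 5.12 and 5.72 CPM in HBL1 (-1.16 ± 0.13, adjusted p = 2.9e-05). CCL22, a chemokine for regulatory T cells, was at 59.9 and 52.2 against 41.4 and 34.2 CPM in TMD8 and 78.4 and 51 against 49.2 and 23.5 CPM in HBL1. Its change of -0.71 ± 0.16 did not pass (adjusted p = 0.052) but passed with the replicate block (adjusted p = 4.8e-09) and with no filter on low counts (2.2e-14).

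A group of cytokine genes was readable in TMD8 alone. IL6, an activator of STAT3, went from 22.2 and 20.4 to 6.39 and 5.38 CPM in TMD8 (pooled log2 change -1.84 ± 0.20, adjusted p = 2.4e-05), whereas no HBL1 library exceeded 0.216 CPM. IL12B, a subunit of IL-12 and IL-23, went from 11.8 and 5.75 to 1.73 and 1.31 CPM in TMD8 (-2.52 ± 0.39, adjusted p = 0.0030) and had 0 reads in all HBL1 libraries. CXCL10, an interferon-inducible chemokine, went from 7.51 and 7.62 to 2.17 and 2.99 CPM (-1.55 ± 0.31, adjusted p = 0.022), also with 0 reads in HBL1. Nothing can be said of their response in HBL1. Without TMD8 DMSO replicate 1 the adjusted p was 0.18 for IL12B and 0.24 for CXCL10, and without TMD8 acalabrutinib replicate 2 it was 0.054 and 0.087. CXCL10 was also lost without TMD8 acalabrutinib replicate 1 (0.28) or TMD8 DMSO replicate 2 (0.11), and with DESeq2 (0.10). In 1 fit of all 48 libraries none of the 3 was called, with -1.61 for IL6 (adjusted p = 0.67), -1.27 for IL12B (1.0) and -0.78 for CXCL10 (1.0). That fit took the plain mean of the effects in the lines. For IL12B and CXCL10 the mean counts HBL1, with 0 reads, as no change, so it cannot check their fall in TMD8.

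**Figure D1:**
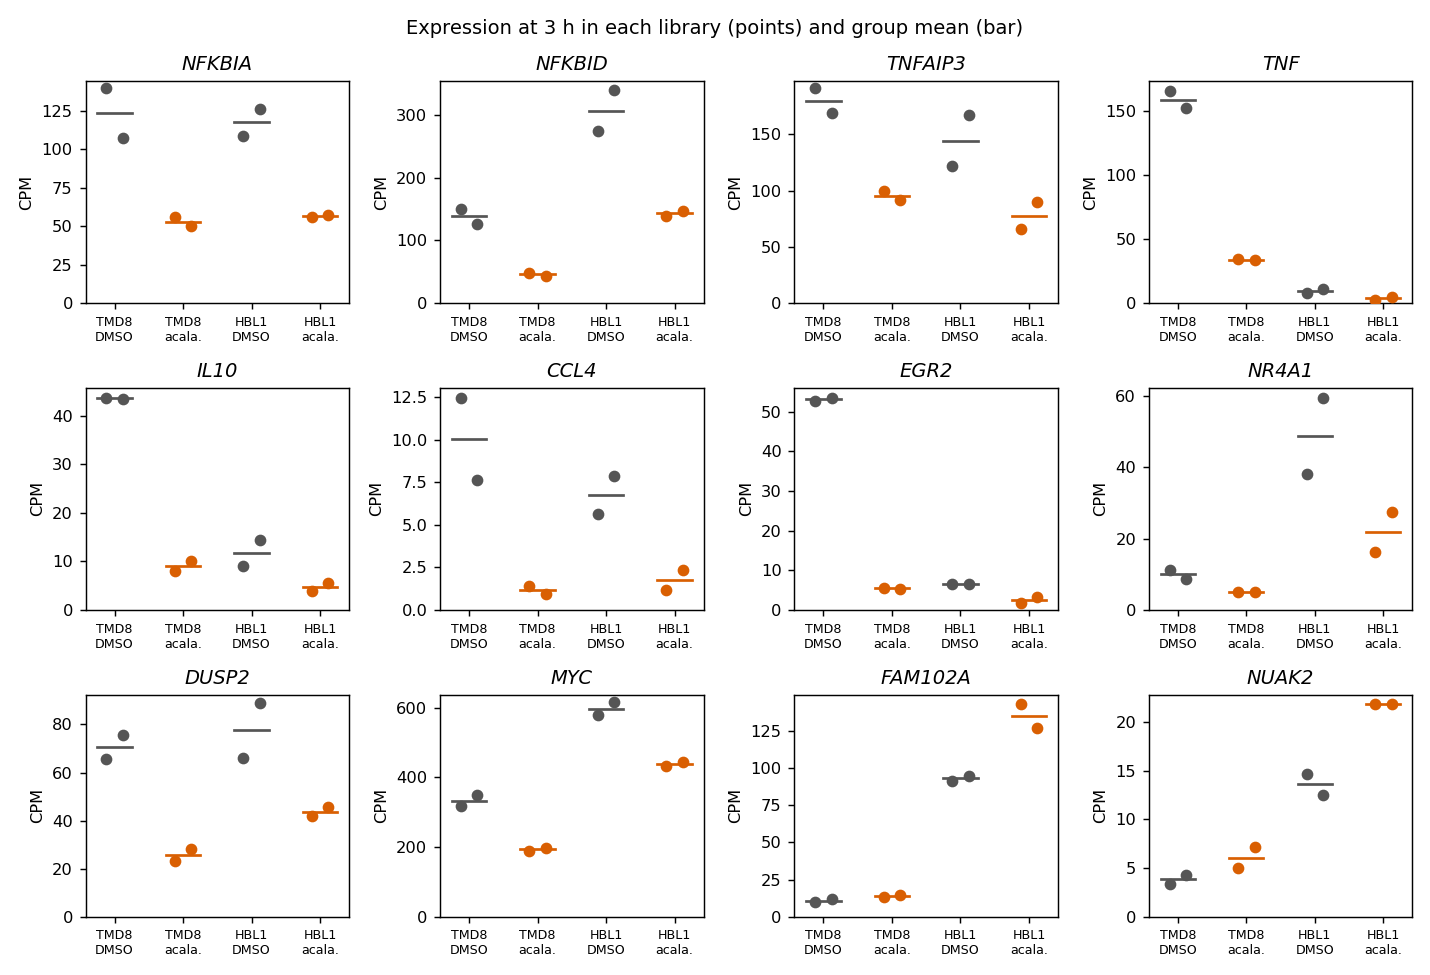
Expression in CPM (y axis, starting at 0) of 12 genes in the 8 libraries at 3 h, with a point for each library and a bar for the mean of each line and treatment (n = 2). In the first 10 panels both acalabrutinib points (orange) lie below both DMSO points (grey) in each line, and in the panels of FAM102A and NUAK2 they lie above. TNF, IL10 and EGR2 start far higher in TMD8 than in HBL1.

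Early response genes, which are transcribed within minutes of receptor signalling, formed the third group. Of 25 tested immediate early and ERK feedback genes 7 fell, against 0.697% of all genes tested, and none rose (list median -0.50). With the replicate block 12 were lower, against 2.16% of all genes tested. EGR2, a zinc finger factor induced by antigen receptors, was at 52.9 and 53.5 CPM under DMSO and 5.63 and 5.38 CPM under acalabrutinib in TMD8. In HBL1 it was at 6.46 and 6.59 against 1.85 and 3.17 CPM. The fall was 6.49-fold (-2.70 ± 0.24, adjusted p = 3.8e-06). EGR3, its relative, fell from 7.82 and 7.62 to 2.27 and 1.67 CPM in TMD8 and from 20.2 and 19.1 to 8.61 and 11 CPM in HBL1 (-1.28 ± 0.17, adjusted p = 0.00039). EGR1 was at 23.6 and 48.2 against 9.31 and 7.29 CPM in TMD8 and at 26.6 and 59.6 against 12 and 29 CPM in HBL1. Its libraries thus overlapped in HBL1, where each second replicate was the higher. The pooled fall of EGR1 (-1.48 ± 0.29, adjusted p = 0.012) was lost without TMD8 acalabrutinib replicate 1 (adjusted p = 0.053) or 2 (0.058) or HBL1 DMSO replicate 2 (0.066), and DESeq2 did not call it (0.14).

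The orphan nuclear receptors NR4A1 and NR4A3, used as reporters of antigen receptor signalling, fell too. NR4A1 was at 11.3 and 8.77 CPM under DMSO and 5.09 and 4.90 CPM under acalabrutinib in TMD8, and at 38 and 59.5 against 16.1 and 27.5 CPM in HBL1 (-1.12 ± 0.17, adjusted p = 0.0014). NR4A3 was at 28.4 and 20.7 against 11.3 and 8.73 CPM in TMD8 and 37.2 and 59.3 against 10.9 and 31.5 CPM in HBL1 (-1.23 ± 0.22, adjusted p = 0.0065), and DESeq2 did not call it (0.13). DUSP2, a phosphatase that turns off MAP kinases, fell from 65.5 and 75.8 to 23.2 and 28.2 CPM in TMD8 and from 66.2 and 89.1 to 42 and 45.5 CPM in HBL1 (-1.12 ± 0.12, adjusted p = 2.4e-05). JUNB, an AP-1 subunit, fell from 29 and 28.2 to 16.7 and 15.4 CPM in TMD8 and from 42.9 and 47.6 to 32.1 and 30.6 CPM in HBL1 (-0.66 ± 0.09, adjusted p = 0.00049).

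Among 14 tested genes of the calcium and NFAT response 8 fell, against 0.697% of all genes tested, and none rose (median -0.56). EGR2, EGR3, NR4A1 and NR4A3 belong to this list as well. CD69, an early activation antigen of lymphocytes, was at 16.4 and 17 CPM under DMSO and 2.49 and 2.51 CPM under acalabrutinib in TMD8. In HBL1 it was at 1.04 and 3.46 against 1.09 and 1.84 CPM, where the treatments overlapped. Its pooled fall (-2.06 ± 0.34, adjusted p = 0.0025) rested on TMD8, and DESeq2 did not call it (0.32). NFATC1, an NFAT factor, went from 44.4 and 47.6 to 36.4 and 39.7 CPM in TMD8 and from 301 and 292 to 191 and 183 CPM in HBL1 (-0.51 ± 0.07, adjusted p = 0.00082). PTGER4, a prostaglandin receptor, completes the list's called members with MYC (-0.82 for PTGER4).

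MYC, a transcription factor that drives growth in many lymphomas, fell from 318 and 348 to 189 and 198 CPM in TMD8 and from 578 and 616 to 432 and 444 CPM in HBL1. The fall was 1.53-fold (-0.61 ± 0.06, adjusted p = 2.4e-05) and was called whichever library was left out. Of the 30 MYC targets and ribosome biogenesis genes only MYC itself passed, with a list median of -0.09. Of the 30, 27 lay below 0, against 6179 of all 12907 genes tested. With the replicate block 6 of the 30 were lower, against 2.16% of all genes tested. Transcription factors that define activated B cell-like lymphoma moved little. IRF4, needed for survival of such lines, was at 2002 and 1725 CPM under DMSO and 1502 and 1362 CPM under acalabrutinib in TMD8, and at 834 and 958 against 754 and 782 CPM in HBL1. Its fall was 1.23-fold (-0.30 ± 0.06, adjusted p = 0.010) and was lost without TMD8 DMSO replicate 1 (adjusted p = 0.059) or TMD8 acalabrutinib replicate 2 (0.069). The fit of all 48 libraries did not call IRF4 either (edgeR, -0.30, adjusted p = 0.12). BATF (-0.31 ± 0.06) and SPIB (-0.26 ± 0.05), partners of IRF4 on DNA, were the other 2 called of 20 AP-1, BATF, IRF and ETS factors (adjusted p = 0.010 and 0.0098). BATF was lost without TMD8 DMSO replicate 1 (0.059), TMD8 acalabrutinib replicate 1 (0.054) or HBL1 DMSO replicate 1 (0.051), and SPIB without TMD8 acalabrutinib replicate 2 (0.065). ID2, an inhibitor of E proteins, fell by 0.49 on the log2 scale (adjusted p = 0.0011). BCL6 (0.00 ± 0.07) and PRDM1 (-0.12 ± 0.07), which direct the germinal centre and plasma cell states, were not called.

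Survival genes included some that fell. BCL2L1, the gene of BCL-XL, fell from 72.6 and 67.6 to 44.3 and 48.2 CPM in TMD8 and from 349 and 380 to 262 and 269 CPM in HBL1 (-0.52 ± 0.06, adjusted p = 5.1e-05). BCL2A1, which encodes another anti-apoptotic relative of BCL2, fell from 246 and 220 to 169 and 166 CPM in TMD8 and from 94.4 and 119 to 72.3 and 80 CPM in HBL1 (-0.48 ± 0.07, adjusted p = 0.00078). They were the only 2 called of 22 BCL2 family and apoptosis genes in the main fit, against 0.744% of all genes tested. With the replicate block 3 of the 22 were lower and 1 higher, against 2.16% and 0.821% of all genes tested. Of 23 G1/S and replication genes, CCND2, the gene of cyclin D2, fell (-0.36 ± 0.06, adjusted p = 0.0034) and E2F2 rose. PIM3, a kinase gene of the STAT3 list, fell by 0.53 on the log2 scale (adjusted p = 0.00099), the only call of 20 in the main fit. With the block 4 of these 20 were lower and 2 higher. CD40, a costimulatory receptor, fell from 148 and 123 to 102 and 89.3 CPM in TMD8 and from 183 and 190 to 146 and 133 CPM in HBL1 (-0.46 ± 0.07, adjusted p = 0.00085). With CD69 it made 2 called of 22 activation surface molecules, whose median was -0.14. GPR183, a homing receptor for oxysterols, was at 190 and 179 against 122 and 128 CPM in TMD8 and 2.60 and 6.48 against 2.83 and 4.19 CPM in HBL1, where it overlapped (-0.53 ± 0.12, adjusted p = 0.030). It was lost on leaving out any of the 4 TMD8 libraries (adjusted p = 0.091 to 0.26) and with DESeq2. PLK3, a kinase listed among p53 targets, fell by 0.40 on the log2 scale (adjusted p = 0.011), and was lost in 4 of 8 fits without 1 library (adjusted p = 0.053 to 0.061, each TMD8 library but DMSO replicate 2, and HBL1 DMSO replicate 2).

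Of 24 interferon-stimulated genes 4 fell, against 0.697% of all genes tested, and all 4 belong to the IFIT family of antiviral RNA-binding proteins. IFIT1 was at 43.8 and 23.7 CPM under DMSO and 17 and 19.1 CPM under acalabrutinib in TMD8, and at 12.9 and 14.1 against 8.18 and 9.40 CPM in HBL1 (-0.80 ± 0.16, adjusted p = 0.013). IFIT2 (-0.78 ± 0.16, adjusted p = 0.021), IFIT3 (-0.65 ± 0.14, adjusted p = 0.030) and IFIT5 (-0.48 ± 0.09, adjusted p = 0.010) went the same way. None of the 4 was called without TMD8 DMSO replicate 1 (adjusted p = 0.075 to 0.49), the library with the highest IFIT1, or without TMD8 acalabrutinib replicate 1 (0.050 to 0.15), and 1 was called without TMD8 acalabrutinib replicate 2. IFIT3 was also lost without HBL1 DMSO replicate 2 (0.062) or HBL1 acalabrutinib replicate 1 (0.13). The list median was -0.20, and 7 members were lower with the replicate block, against 2.16% of all genes tested.

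The 6 genes that rose did so by 1.20- to 1.60-fold. NUAK2, an AMPK-related kinase, went from 3.38 and 4.31 to 4.98 and 7.17 CPM in TMD8 and from 14.7 and 12.5 to 21.9 and 21.9 CPM in HBL1 (0.68 ± 0.14, adjusted p = 0.017). FAM102A (newer name EEIG1) went from 10 and 11.8 to 13.1 and 14.6 CPM in TMD8 and from 91.5 and 94.7 to 143 and 127 CPM in HBL1 (0.49 ± 0.08, adjusted p = 0.0026). FAM102A was the only one called in all 8 fits that left out a library. E2F2, a cell cycle factor, rose by 0.41 ± 0.09 (adjusted p = 0.028) and TRIB1, a pseudokinase, by 0.38 ± 0.07 (adjusted p = 0.0087). METTL7A (newer name TMT1A) rose by 0.32 ± 0.07 (adjusted p = 0.038) and MEF2D, a transcription factor, by 0.27 ± 0.06 (adjusted p = 0.029). NUAK2 was lost without HBL1 DMSO replicate 2 (adjusted p = 0.12), HBL1 acalabrutinib replicate 1 (0.073), TMD8 DMSO replicate 1 (0.066) or TMD8 acalabrutinib replicate 2 (0.066), and TRIB1 without HBL1 acalabrutinib replicate 1 (0.073) or HBL1 DMSO replicate 2 (0.060). E2F2 was kept only without TMD8 DMSO replicate 2, METTL7A only without TMD8 DMSO replicate 1 or acalabrutinib replicate 2, and MEF2D only without HBL1 replicate 2 of either treatment, with adjusted p of up to 0.15, 0.21 and 0.16 in the other fits.

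Few transcripts of the pathway that carries the signal were called, which does not show that the others were unchanged. Of 25 genes of the B cell receptor complex and its proximal kinases 1 fell: PTPN6, the gene of the phosphatase SHP-1, which went from 499 and 484 to 414 and 406 CPM in TMD8 and from 116 and 91.9 to 80 and 73.1 CPM in HBL1 (-0.34 ± 0.07, adjusted p = 0.015). The list median was 0.04. With the replicate block 4 of the 25 were lower and 2 higher, against 2.16% and 0.821% of all genes tested. CD79A (0.11 ± 0.07) and CD79B (0.16 ± 0.06), the signalling chains of the receptor, were not called (adjusted p = 0.82 and 0.44), although CD79B passed with the block (0.023). SYK (0.02 ± 0.05), PLCG2 (0.05 ± 0.04), MALT1 (-0.06 ± 0.06) and MYD88 (-0.14 ± 0.06) were not called, with or without the block. LYN had a change of -0.20 ± 0.06 that was not called (adjusted p = 0.24) but passed with the block (7.2e-05) and with no filter on low counts (0.0088). No member passed among 21 FOXO targets and PI3K feedback genes, whose median was 0.16, but 4 were higher with the block, and FOXO1 (0.19 ± 0.07) passed in that fit (0.011). CXCR4, a homing receptor, had a change of 0.31 ± 0.08 (adjusted p = 0.11, but 0.00031 with the block and 0.023 with no filter on low counts), while KLF2 was at 0.03 ± 0.17. None of the 26 endoplasmic reticulum chaperone and degradation genes, 27 ATF4 and CHOP targets, 24 cholesterol synthesis, 22 glycolysis, 21 G2/M and 13 MHC class II genes was called. With the block 3 of the first list were lower, and 1 gene in each of the others was called (higher for ATF4 and CHOP and for G2/M, lower for cholesterol, glycolysis and MHC class II).

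**Figure D2:**
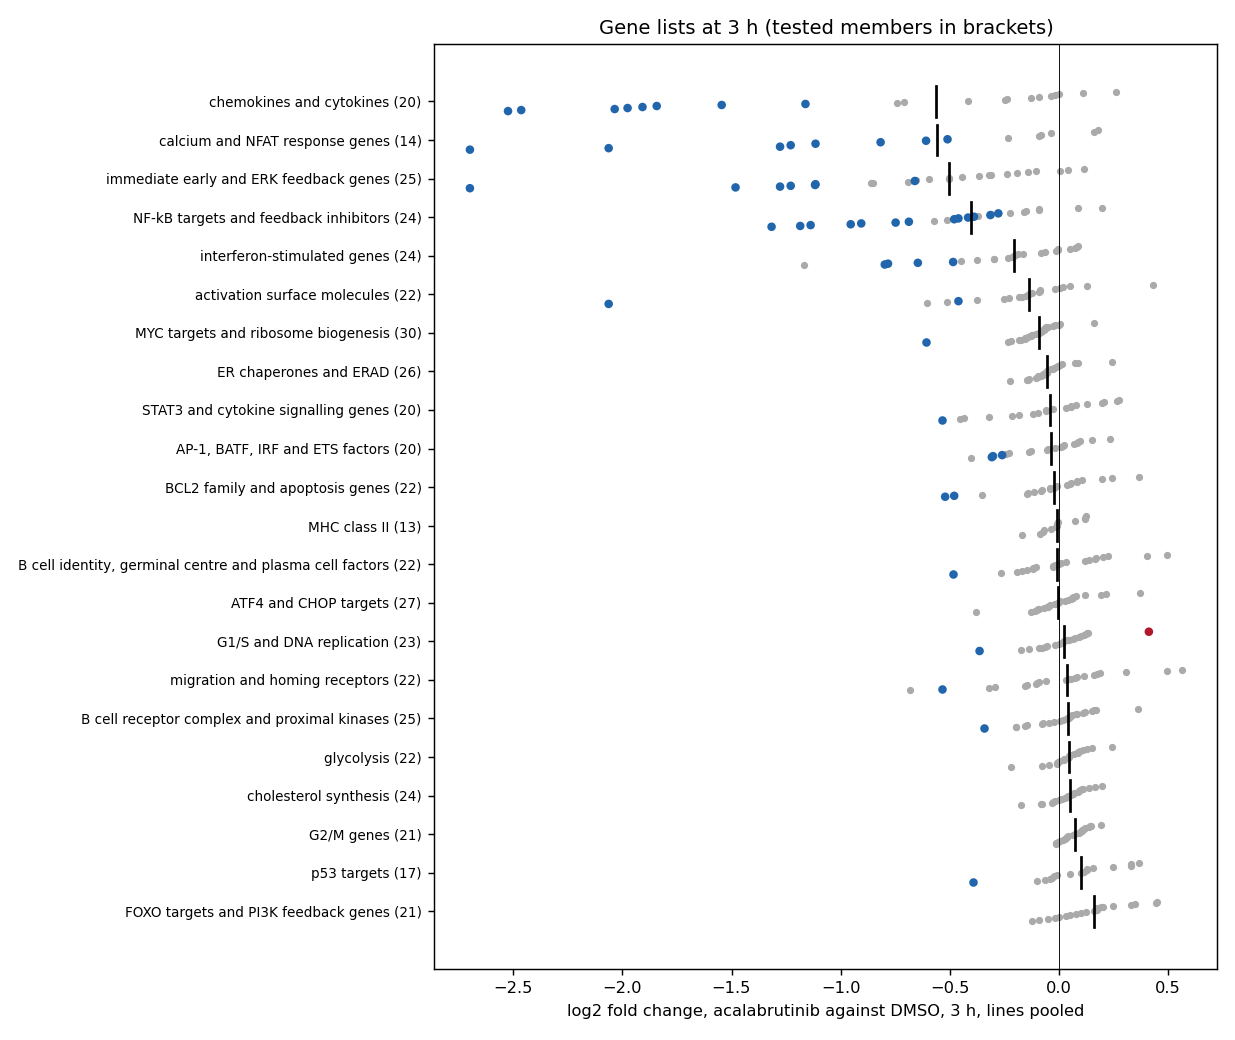
Log2 fold change of acalabrutinib against DMSO at 3 h (x axis) for the tested members of 22 gene lists, with the number tested in brackets, blue points for genes called lower, a red point for the gene called higher (E2F2), grey points for genes not called and a black bar at each list median. The 4 lists at the top, of cytokines, calcium response, early response and NF-kB genes, have medians of -0.56 to -0.40, and the others lie between -0.20 and 0.16.

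The 2 lines were next compared with each other. TMD8 alone gave 45 lower genes (0.349%) and 1 higher (0.00775%), and HBL1 alone 34 lower (0.263%) and 2 higher (0.0155%). Lower in both lines were 20 genes, 44.4% of those of TMD8 and 58.8% of those of HBL1. Of the 45 in TMD8, 42 were below 0 in HBL1 as well, where 49.2% of all genes were, and 33 of the 34 in HBL1 were below 0 in TMD8, where 47.7% were. The test of the difference between lines called no gene (edgeR, smallest adjusted p = 0.23, with 332 genes at an unadjusted p under 0.05), but 37 with the replicate block (0.287%), 1 with DESeq2 and 1 without HBL1 acalabrutinib replicate 1. EGR2 stood first, with a log2 change of -3.27 in TMD8 and -1.36 in HBL1, a difference of -1.90 ± 0.33 (adjusted p = 0.23, and 0.00088 with the block). CD83, a dendritic and B cell activation marker, was at 318 and 248 against 124 and 92.2 CPM in TMD8 and 361 and 434 against 247 and 295 CPM in HBL1. Its difference between lines was -0.83 ± 0.19, which was not called (adjusted p = 1.0) but passed with the block (2.4e-10) and with no filter on low counts (2.8e-07).

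**Figure D3:**
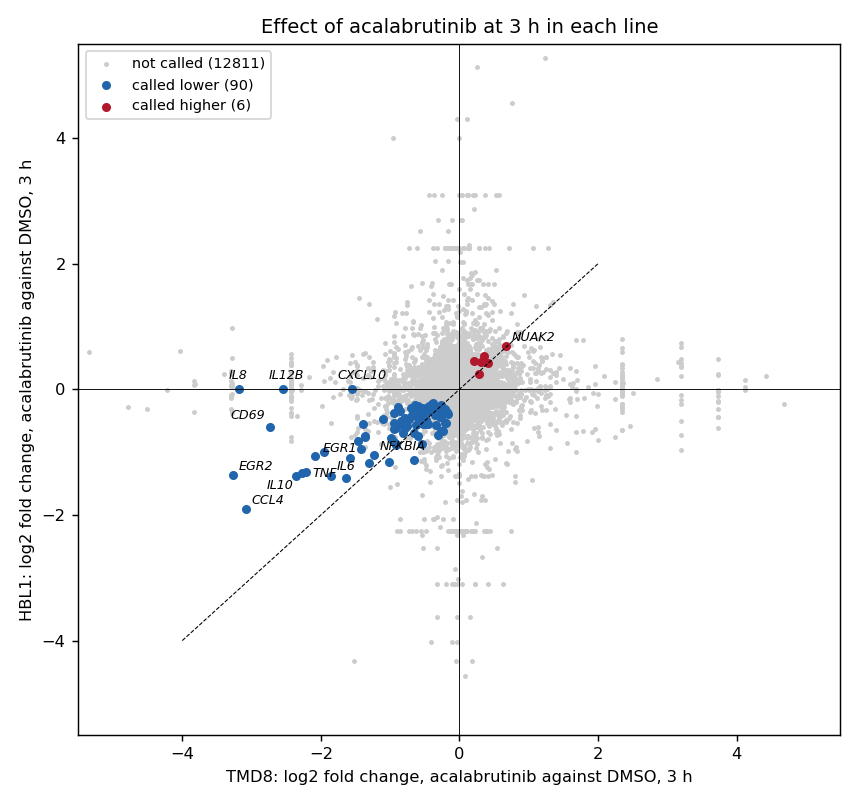
Log2 fold change of acalabrutinib against DMSO at 3 h in TMD8 (x axis) and HBL1 (y axis) for the 12907 genes tested, with 90 genes called lower in blue, 6 called higher in red, the others in grey and a dashed line of equal change. The blue points lie below 0 in both lines, apart from 3 genes at 0 on the HBL1 axis (IL8, IL12B and CXCL10) that had 0 reads there.

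With 6 and 24 h of acalabrutinib, each against DMSO of its own time, most of the early falls were still present. At 6 h 770 genes were lower (5.65%) and 529 higher (3.88%), and at 24 h 2599 lower (19.1%) and 2528 higher (18.6%). Of the 90 genes lower at 3 h, 84 (93.3%) were lower at 6 h, where they made up 10.9% of the lower genes. Their median log2 change was -0.96 at 6 h. At 24 h 64 of the 90 (71.1%) were lower, 2.46% of the lower genes of that time, 25 were not called and 1, SPIB, was higher (0.18, adjusted p = 0.016). SPIB was lost at 24 h without TMD8 DMSO replicate 1 (adjusted p = 0.061), TMD8 acalabrutinib replicate 1 (0.089), HBL1 acalabrutinib replicate 1 (0.071) or HBL1 DMSO replicate 2 (0.053) of that time. The 6 higher genes were higher at both later times. The effect at 6 h differed from that at 3 h in 14 genes (0.103%), 2 of them higher (0.0147%) and 12 lower (0.0881%), and all 12 are among the 90. The count at 6 h, 1299 in all, became 855 without HBL1 DMSO replicate 1 of that time.

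Of the 24 listed NF-kB targets 20 were lower at 6 h and 22 at 24 h, with 1 higher at 6 h. Of the 20 chemokines and cytokines 10 were lower and 1 higher at 6 h, and 12 were lower and 2 higher at 24 h. Among all genes tested, 5.65% were lower and 3.88% higher at 6 h, and 19.1% lower and 18.6% higher at 24 h. The subunit gene REL was not called at 24 h (-0.17, adjusted p = 0.20). NFKBIA was changed by -1.57 at 6 h and -1.39 at 24 h, TNF by -3.03 and -2.53, IL10 by -3.09 and -3.04, and all were called. At 24 h the early response genes had unlike pooled values. The group means of EGR3 and EGR2 went opposite ways in the lines, which was not tested. EGR3 was at -2.02 at 6 h (adjusted p = 1.1e-07) and -0.01 at 24 h, a difference from 3 h of 1.29 ± 0.34 at 24 h (adjusted p = 0.0091). At 24 h EGR3 was at 0.638 ± 0.155 CPM (SD, n = 2) under DMSO and 0.210 ± 0.0051 under acalabrutinib in TMD8, and at 4.41 ± 1.11 against 5.13 ± 0.024 in HBL1, so the pooled value near 0 joins a lower level in TMD8 with a higher one in HBL1. NR4A1 was at -0.67 at 6 h, a call lost without TMD8 DMSO replicate 1 (adjusted p = 0.071), TMD8 acalabrutinib replicate 2 (0.085), HBL1 acalabrutinib replicate 1 (0.16) or HBL1 DMSO replicate 2 (0.098) of that time, and at 0.10 at 24 h, differing from 3 h by 1.21 ± 0.30 at 24 h (adjusted p = 0.0055). EGR2 was called lower at 24 h in the pooled fit (-1.64, adjusted p = 0.039), but the lines went opposite ways, from 10.6 ± 3.87 CPM (SD, n = 2) under DMSO to 0.103 ± 0.146 under acalabrutinib in TMD8 and from 2.52 ± 0.589 to 3.94 ± 0.183 in HBL1. The pooled call was lost without any 1 of the 4 TMD8 libraries of that time (adjusted p = 0.066 to 0.22), and the difference between the lines at 24 h was not tested. CD69 was at -2.31 at 6 h and -0.03 at 24 h (difference from 3 h 1.99 ± 0.66, adjusted p = 0.037), and that difference was lost in 8 of 24 fits without 1 library (adjusted p = 0.056 to 0.16), namely any TMD8 library of 3 h, TMD8 DMSO replicate 1 or acalabrutinib replicate 2 of 24 h, HBL1 DMSO replicate 2 of 3 h or HBL1 acalabrutinib replicate 2 of 24 h. Other falls deepened. IRF4 reached -0.78 at 6 h and was lowest at 24 h (24 h minus 3 h, -0.70 ± 0.13, adjusted p = 0.00053), BATF -0.76 and -1.50 (-1.19 ± 0.14, adjusted p = 1.9e-06) and MIRHG2 -1.78 and -2.26 (-1.07 ± 0.23, adjusted p = 0.0017). Among the 90 genes the effect at 24 h was above that at 3 h in 9 and below it in 10, against 8.08% and 9.01% of all genes tested (17.1% in either direction), shares near the background.

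**Figure D4:**
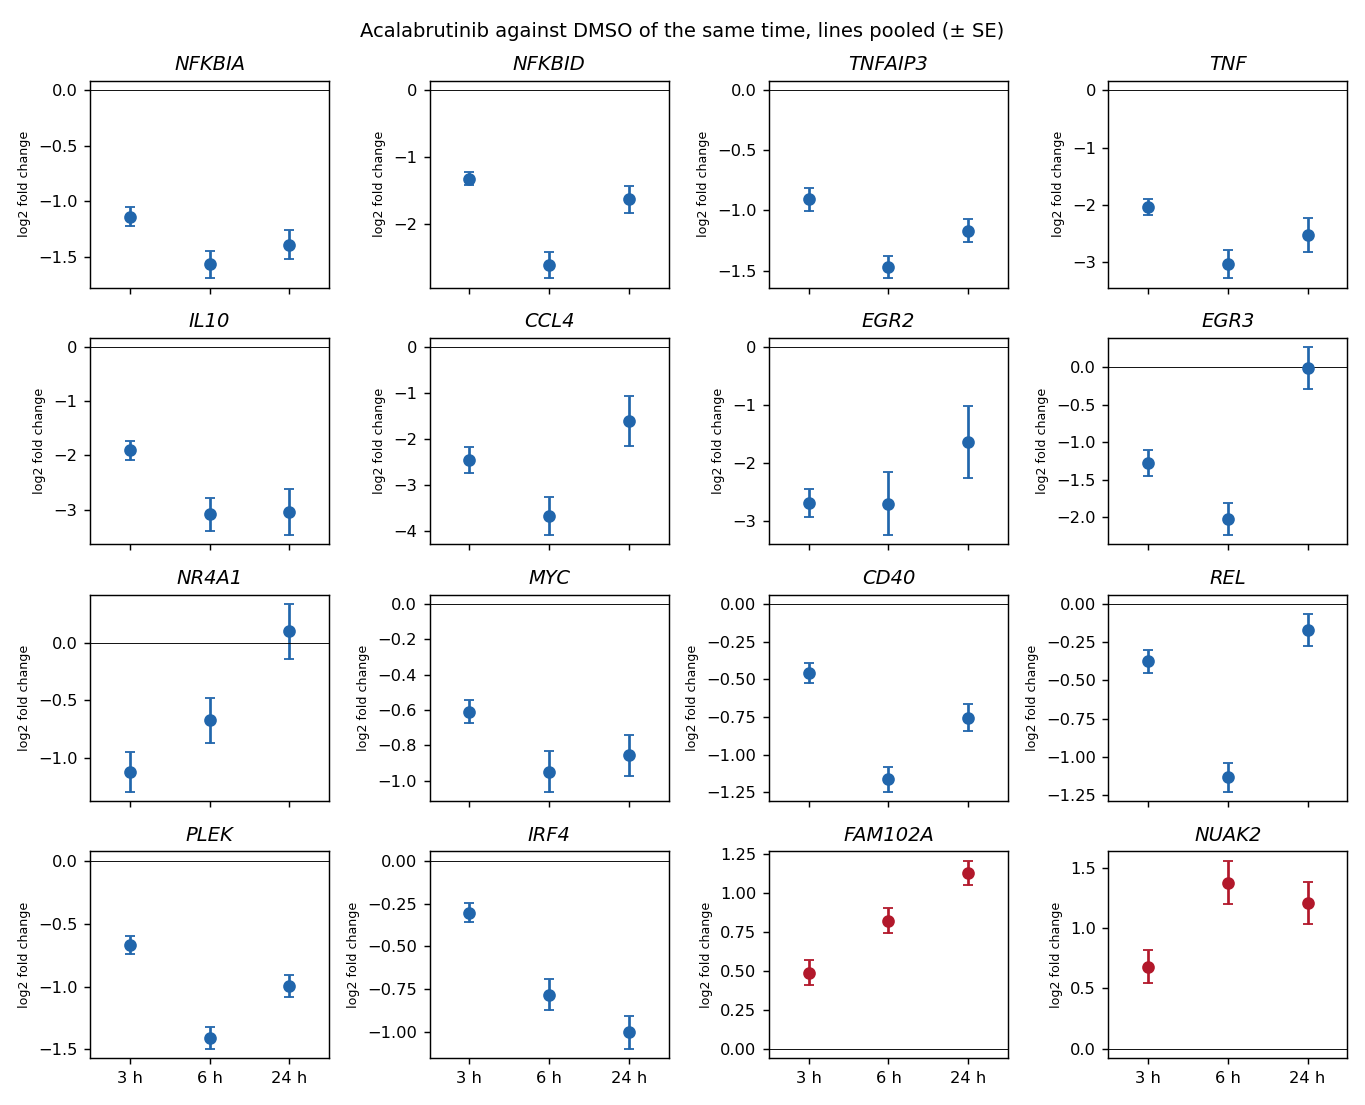
Log2 fold change of acalabrutinib against DMSO of the same time, lines pooled, at 3, 6 and 24 h (x axis, not to scale in time) for 16 genes, with points for the estimates and bars for the SE. Blue marks genes below 0 at 3 h and red genes above 0. NFKBIA, TNF and IL10 stay below 0 at all times, EGR3 and NR4A1 are near 0 at 24 h, and IRF4 has its lowest value at 24 h.

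At 3 h the response was set beside those of the other compounds, which share the DMSO libraries, so only the direct contrasts are tests. Copanlisib alone called 417 genes lower (3.15%) and 231 higher (1.75%), and NGI-1 alone 16 lower (0.121%) and 127 higher (0.961%). Acalabrutinib and copanlisib differed in 38 genes (0.287%; 16 higher, 0.121%, and 22 lower, 0.166%, after acalabrutinib). For 85 of the 90 lower genes no difference was called, which does not show that the compounds acted alike. The 90 had a median log2 change of -0.80 after copanlisib. In 5 of the 90 the fall was smaller with acalabrutinib. These were TNF (-2.02 against -3.21, difference 1.19 ± 0.19, adjusted p = 0.0023), CCND2 (0.40 ± 0.07, adjusted p = 0.012), IL4I1, an amino acid oxidase (0.46 ± 0.09, adjusted p = 0.022), HIVEP3 (0.38 ± 0.08, adjusted p = 0.024) and SEMA7A (0.46 ± 0.09, adjusted p = 0.028), the last 3 named to account for all 5. The TNF difference was lost without TMD8 copanlisib replicate 2 (adjusted p = 0.053), and that of CCND2 without the same library (0.056) or TMD8 acalabrutinib replicate 1 (0.064) or 2 (0.076). IL4I1 was lost in 4 of 16 such fits (adjusted p up to 0.12), HIVEP3 in 6 (up to 0.091) and SEMA7A in 6 (up to 0.20), each among them without either TMD8 copanlisib library, TMD8 acalabrutinib replicate 2 or HBL1 acalabrutinib replicate 1; HIVEP3 and SEMA7A also without TMD8 acalabrutinib replicate 1 or HBL1 copanlisib replicate 2. Of the 6 higher genes, NUAK2 (difference -0.68 ± 0.14, adjusted p = 0.043) and METTL7A (-0.46 ± 0.06, adjusted p = 0.00081) were lower than after copanlisib. The NUAK2 difference was lost in 9 of 16 fits without 1 library (adjusted p = 0.051 to 0.17), which left out any TMD8 acalabrutinib, copanlisib or NGI-1 library, TMD8 DMSO replicate 2 or either HBL1 acalabrutinib library. KIAA0040 (0.20 after acalabrutinib, 0.66 after copanlisib, adjusted p = 2.5e-05), KLHL24, a FOXO target (0.45 and 1.17, adjusted p = 0.00073), and CXCR4 (0.30 and 1.01, adjusted p = 0.00080) were higher after copanlisib. LRRC33 (newer name NRROS), SIGLEC14 and RELT were higher after acalabrutinib than after copanlisib (differences 0.49, 0.77 and 0.40, adjusted p = 0.00081, 0.010 and 0.011). SIGLEC14 was lost without TMD8 acalabrutinib replicate 1 (adjusted p = 0.25) or copanlisib replicate 2 (0.15), and RELT without TMD8 acalabrutinib replicate 1 (0.064) or 2 (0.068) or copanlisib replicate 1 (0.063). The count of 38 fell to 13 and 11 without TMD8 acalabrutinib replicates 1 and 2, 11 and 16 without TMD8 copanlisib replicates 1 and 2 and 21 without HBL1 acalabrutinib replicate 1.

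Acalabrutinib and NGI-1 differed in 220 genes (1.66%; 25 higher, 0.189%, and 195 lower, 1.48%, after acalabrutinib). The 90 genes had a median log2 change of -0.16 after NGI-1, and 49 of them were lower with acalabrutinib, among them NFKBIA (-0.92 ± 0.09, adjusted p = 5.4e-07), TNFAIP3 (-0.93 ± 0.11, adjusted p = 1.4e-05) and EGR2 (-2.18 ± 0.28, adjusted p = 3.1e-05). HSPA5, the gene of the endoplasmic reticulum chaperone BiP, was at -0.14 after acalabrutinib and 1.89 after NGI-1 (difference -2.02 ± 0.13, adjusted p = 1.9e-09). HERPUD1, DNAJC3 and DNAJB11, further genes of the endoplasmic reticulum, differed by -1.63, -1.27 and -1.07 (adjusted p = 3.1e-08, 2.0e-08 and 2.7e-09). Higher after acalabrutinib than after NGI-1 were BICD2 (0.42), KIAA1949 (newer name PPP1R18, 0.51), SOCS3, an inhibitor of cytokine signalling (0.71), and RBM38 (0.36), with adjusted p of 7.5e-05, 0.00059, 0.00061 and 0.00088.

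**Figure D5:**
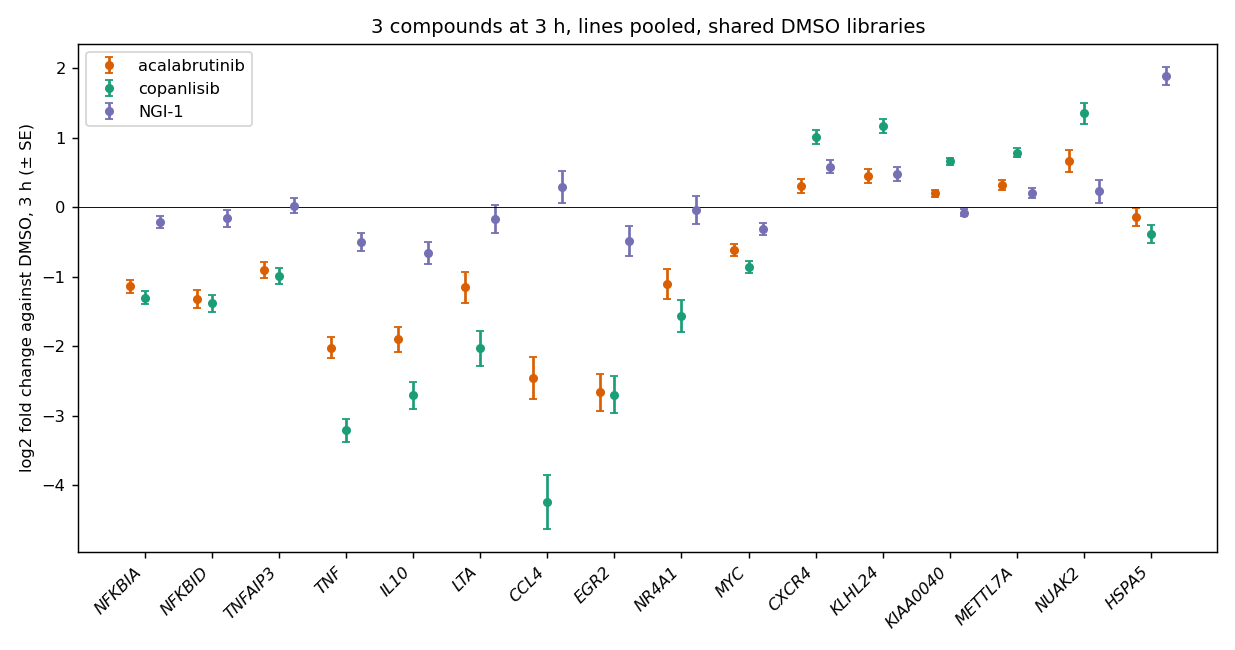
Log2 fold change against DMSO at 3 h, lines pooled (y axis, bars are SE), for 16 genes after acalabrutinib (orange), copanlisib (green) and NGI-1 (violet), all measured against the same 4 DMSO libraries. NFKBIA, TNFAIP3 and EGR2 have close values with acalabrutinib and copanlisib, TNF is lower with copanlisib (-3.21) than with acalabrutinib (-2.02), and HSPA5 is high with NGI-1 alone (1.89).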

How the data were processed

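The input was the table of raw read counts per gene that the authors deposited. HTSeq and hg19 are named in the submitters' processing notes. Aligner, versions, annotation and strand setting are not given in the sources used here. A total row was removed. Of 25066 genes, 3449 lacked a gene ID (0.773% of the reads of the 8 libraries), and 27 symbols turned into dates were renamed by gene ID. No label states that replicates were separate cultures. The p-values therefore reflect the spread of these libraries alone, possibly a technical one (chi-square per degree of freedom between replicates 3.43 to 5.53 over genes with at least 10 reads).

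Counts were scaled by TMM and filtered with filterByExpr by group in edgeR 4.0.16 (R 4.3.3), fitted with cell line and compound (5 residual degrees of freedom) and tested with the quasi-likelihood F test, with Benjamini-Hochberg adjustment over all genes tested and calls at an adjusted p under 0.05. Replicates varied by 7.07% beyond counting noise (biological coefficient of variation). The line difference used their interaction. Later times were fitted over 24 libraries with 13617 genes tested, and the compounds at 3 h over 16 libraries with 13219. SE is the log2 change divided by the root of F. The code was tested on simulated data.

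Replicate numbers are shared by the groups. Deviations of same-numbered acalabrutinib and DMSO libraries from their group means correlated at 0.12 in TMD8 and 0.25 in HBL1, though the labels name no shared batch. The fit behind the calls held no replicate block. A further fit took the numbers as pairs. Its values are given for some, not all, of the genes and lists whose calls it changed.

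The comparison, its gene lists and the naming rule were chosen with earlier results of these data known. Named genes were the 15 per direction with the largest change among those called whose mean log2 CPM was 1 or more, up to 4 called per list, a set fixed by name, 3 by line difference, and 4 each way for every other contrast. Lists were compiled from general knowledge and not checked against a database. Alternatives were RLE size factors, no filter, a stricter filter, DESeq2 1.42.0, a replicate block, all 48 libraries in 1 fit and each library left out in turn, where a lone sample is assumed to vary like the other groups. In the fit of all 48 libraries the pooled effect was the plain mean of the effects in the lines. Symbols are those of the table. 1 gene list and 1 gene are not reported here. Promoter and microRNA sequences are from RefSeq, GRCh38.p14, while the reads were counted on hg19, so no position was taken from the counts.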

Additional observations from a re-analysis of the deposited data

Results flagged for a closer look

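The effect of acalabrutinib changed with time by the test of the difference itself. Between 6 h and 3 h it differed in 14 genes. Of these 12 were lower at 6 h than at 3 h, all 12 among the 90 genes that fell at 3 h, and 2 were higher. PLEK, a protein kinase C substrate of blood cells, differed by -0.74, CD40 by -0.70, the NF-kB subunit gene REL by -0.75 and ABTB2 by -1.03, each a deeper fall at 6 h. TRIM8 (0.51) and METTL7A (0.58) were higher at 6 h than at 3 h relative to DMSO. These calls rested on single libraries: none of the 14 remained without TMD8 acalabrutinib replicate 1 or TMD8 DMSO replicate 2 of 3 h, and METTL7A was also lost with RLE size factors (adjusted p = 0.058) and the stricter filter (0.061). At an unadjusted p under 0.05, edgeR counted 848 genes.

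Between 24 h and 3 h the effect differed in 2327 genes. NLRP7 (difference 3.03), RNF144B (1.35), RALGPS2 (1.22) and the receptor chain gene CD79B (0.94) were higher at 24 h than at 3 h relative to DMSO. The transferrin receptor gene TFRC (-0.82) and the transporter genes SLC16A9 (-2.71), SLC38A5 (-1.06) and SLC43A3 (-0.87) were lower at 24 h than at 3 h relative to DMSO. Of these 8, only SLC43A3 was called at 3 h (-0.27 ± 0.05, adjusted p = 0.013), and it was lost there without TMD8 DMSO replicate 1, HBL1 DMSO replicate 1 or 2 or HBL1 acalabrutinib replicate 1 (adjusted p = 0.054 to 0.066).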

How the results depend on the processing

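RLE size factors and the stricter filter left each count within 1.5 times of its value. With no filter on low counts 29 genes were higher and 160 lower at 3 h, 6 differed between the lines, 99 between 6 and 3 h, 155 from copanlisib and 396 from NGI-1. DESeq2 gave 1 for the lines, 35 for 6 h minus 3 h and 85 for copanlisib, and the fit of all 48 libraries 42 and 71 for the last 2. With the replicate block 106 were higher and 279 lower at 3 h, and 37 differed between the lines. Deviations of same-numbered libraries correlated less in some groups of the other fits (0.077 in TMD8 at 6 h, 0.093 between acalabrutinib and copanlisib in TMD8). In those fits the block gave 38 for 6 h minus 3 h, 368 for copanlisib and 648 for NGI-1. Of the 8 libraries at 3 h, 6 had their closest match in the same-numbered library of the other treatment. Leaving out 1 library gave 1 to 10 higher and 65 to 93 lower genes, 0 to 1 for the lines, 855 to 1370 at 6 h, 4125 to 5139 at 24 h, 0 to 19 for 6 h minus 3 h, 1740 to 2482 for 24 h minus 3 h, 11 to 49 for copanlisib and 156 to 255 for NGI-1. The causes of these changes in count were not tested. No called gene named here changed sign under any of these settings. Besides IL6, IL12B and CXCL10, edgeR over all 48 libraries did not call IRF4 (adjusted p = 0.12), REL (0.066), GPR183 (0.29) or IFIT2 (0.48). Nor did it call NUAK2 (0.11), E2F2 (0.084) or ABTB2 (0.084). Of the 96 genes called at 3 h, 96 were called with RLE, 95 with the stricter filter, 96 with no filter, 96 with the block, 88 with DESeq2 and 78 with all 48 libraries; 57 lower genes and 1 higher were called in all 8 fits without 1 library. Depth limits genes with few or no reads, such as CD69 (near 1 CPM), IL6, IL12B and CXCL10 in HBL1.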

Other observations

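Genes outside the lists also fell at 3 h, and are named here after their values were seen. SIAH2, a ubiquitin ligase, went from 151 and 122 to 79.1 and 58.9 CPM in TMD8 and from 152 and 140 to 83.7 and 86.7 CPM in HBL1 (-0.88 ± 0.09, adjusted p = 1.2e-05). PLEK went from 1209 and 934 to 752 and 669 CPM in TMD8 and from 590 and 541 to 356 and 320 CPM in HBL1 (-0.67 ± 0.07, adjusted p = 2.4e-05). MAP3K8, a kinase of the ERK pathway, went from 30.8 and 25.3 to 16.2 and 13.1 CPM in TMD8 and from 59.7 and 79.5 to 31 and 45.6 CPM in HBL1 (-0.89 ± 0.12, adjusted p = 0.00051). SEMA7A, a membrane semaphorin, went from 292 and 257 to 202 and 178 CPM in TMD8 and from 246 and 219 to 136 and 118 CPM in HBL1 (-0.70 ± 0.08, adjusted p = 3.1e-05). In each of the 4 genes the treatments did not overlap in either line. IL8 (newer name CXCL8), below the level required by the naming rule, had the largest fitted fall (8.73-fold), from 2.85 and 4.74 to 0.433 and 0.359 CPM in TMD8, with 0 reads in HBL1 (adjusted p = 0.0079). It was lost without TMD8 DMSO replicate 2 (adjusted p = 0.10) or TMD8 acalabrutinib replicate 1 (0.095) or 2 (0.11).

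LOC100288133, for which no function is given in the table, fell from 7.51 and 10.1 to 3.14 and 2.39 CPM in TMD8 and from 8.12 and 12.6 to 2.94 and 4.80 CPM in HBL1 (-1.51 ± 0.20, adjusted p = 0.00043). LOC100288299, among the 3 named for the difference between lines (2.56 ± 0.62, adjusted p = 1.0), was at 0.211 and 0.719 against 2.60 and 2.39 CPM in TMD8 and 3.12 and 3.67 against 3.27 and 3.27 CPM in HBL1.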
